A study of Mus musculus with 14 samples.

Results

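Flavin-containing monooxygenases were followed in mouse liver from 3 wk of age to young adulthood through 4 genes, Fmo1, Fmo2, Fmo4 and Fmo5. They were chosen by name, as the genes to which the RefSeq accession of a probe led, and they are 4 of the 19751 genes named on the array, with 7 of its 39429 probes. In all 28 channels all 7 probes were well above background, a flag that the scanner software sets where a spot stands out from its surroundings. Liver RNA came from male (M) and female (F) mice of the outbred CD-1 strain, aged 3, 4 or 8 wk, and the labels name no treatment and no engineered allele for any group. A group such as M8 (male, 8 wk) consisted of 2 RNA pools, of 5 mice each at 3 wk and 6 mice each at 4 and 8 wk, so that differences between single mice were not measured. Pairs of groups were hybridized to 2-colour Agilent arrays in 7 comparisons, with 2 arrays per comparison that carried separate pools with the dyes exchanged. A ratio is written as numerator over denominator (M8/F8, male over female at 8 wk), and in the age comparisons the 8 wk group is the numerator.

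Flavin-containing monooxygenases are enzymes of the endoplasmic reticulum membrane that hold the cofactor FAD, take electrons from NADPH and add 1 atom of molecular oxygen to soft nucleophiles, most often the nitrogen or sulphur of a drug, a dietary amine or a thioether. They work beside the cytochromes P450 but do not need the P450 reductase. Fmo1 is a major form of mouse liver and kidney and also oxidizes hypotaurine to taurine. Fmo2 is best known as the form of lung. Fmo4 is a minor form with few known substrates. Fmo5 differs from the others in catalysing Baeyer-Villiger oxidations, in which oxygen is inserted next to a carbonyl group, and it is abundant in liver. Androgens are known to lower some forms in mouse liver.

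Fmo4, Fmo1 and Fmo2 are neighbours on chromosome 1, with the non-coding RNA gene Gm32197 between Fmo1 and Fmo2, whereas Fmo5 is on chromosome 3. RefSeq promoter windows (mouse build GRCm38.p6, 250 bases before to 50 bases after an annotated start) were at hand for Fmo2, Fmo4 and Fmo5. The windows below are shown because Fmo2 and Fmo4 had lower expression in adult males and Fmo5 did not. They read 5′ to 3′ on the strand of the gene, and capitals mark the letters matched in a search of both strands.
Fmo4, chr1:162812500-162812799, minus strand: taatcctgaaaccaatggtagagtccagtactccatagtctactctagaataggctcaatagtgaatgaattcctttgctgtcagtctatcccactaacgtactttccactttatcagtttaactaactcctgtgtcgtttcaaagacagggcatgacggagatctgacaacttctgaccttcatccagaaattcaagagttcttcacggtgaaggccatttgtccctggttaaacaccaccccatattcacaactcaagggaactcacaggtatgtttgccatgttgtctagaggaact
Fmo2, chr1:162898444-162898743, minus strand: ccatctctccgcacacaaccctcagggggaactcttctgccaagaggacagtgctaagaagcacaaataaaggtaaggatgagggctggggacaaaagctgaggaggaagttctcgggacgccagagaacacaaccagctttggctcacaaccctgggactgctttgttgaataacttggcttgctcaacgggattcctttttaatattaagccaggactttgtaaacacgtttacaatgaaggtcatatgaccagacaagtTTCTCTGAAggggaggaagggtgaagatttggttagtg
Fmo5, chr3:97628769-97629068, plus strand: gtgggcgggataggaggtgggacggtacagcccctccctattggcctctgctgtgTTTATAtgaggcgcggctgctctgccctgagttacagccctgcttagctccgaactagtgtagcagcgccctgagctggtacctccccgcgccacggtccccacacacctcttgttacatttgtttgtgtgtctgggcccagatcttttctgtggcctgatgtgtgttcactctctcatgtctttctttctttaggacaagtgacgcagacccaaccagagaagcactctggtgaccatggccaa
The search covered TTCNNNGAA, the core bound by STAT5, CAAAGTCCA, a sequence bound by HNF4, and TATAAA, the TATA box. TTCNNNGAA, a pattern that is the same on both strands, was found once, 13 bases into the transcript from the second annotated start of Fmo2 (TTCTCTGAA). Of all 32851 windows in the RefSeq table, 8.3% held it. TATAAA was found once, on the minus strand 195 bases before the start of Fmo5, and 13.6% of windows held it. CAAAGTCCA was in none of the members' 4 windows and in 0.475% of all windows. The window of the first start of Fmo2 held no match, nor did that of Fmo4. The dinucleotide CG occurred 4 times in the window of Fmo4, 5 times in each of those of Fmo2 and 10 times in that of Fmo5, against a median of 7 over all windows. A match is a stretch of letters and was not tested as a binding site.

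One limma model of the 14 arrays gave a coefficient for each comparison and 1 dye term. The standard error (SE) of a fitted ratio rests on the residual spread over all 14 arrays. It is not the spread between the 2 arrays of a comparison, which n counts. Calls required an adjusted p below 0.05, a change of more than 1.5-fold, and a group that was well above background on each of its arrays of the comparison. Per channel, 55.2% to 77.2% of the 43020 spots other than controls carried that flag (median 66.5%), and no spot was saturated. Xist was lower in males on all 6 arrays that compared the sexes (log2 ratios from -6.67 to -5.10), and the Y-linked genes Ddx3y, Eif2s3y and Uty were higher (5.81 to 8.02), as the dye labels require. The hepatocyte markers Alb, Ttr, Apoa1, Tat, Cps1 and Fgb were well above background in all 28 channels. Comparisons with a group in common used RNA pools of the same mice, so that M8/F8, M8/M3 and M8/M4, for example, are not independent.

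Expression of Fmo1, Fmo2 and Fmo4 was lower in adult male than in adult female liver, and Fmo5 was not called. Of the 4 members, 3 were called lower and 0 higher in M8/F8, where 3.93% of all probes tested were called lower. At 4 wk only Fmo2 among the members was called lower in males, and at 3 wk none was. From 3 to 8 wk the same 3 genes fell in males, and no member was called in females over either interval.

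**Figure D1:**
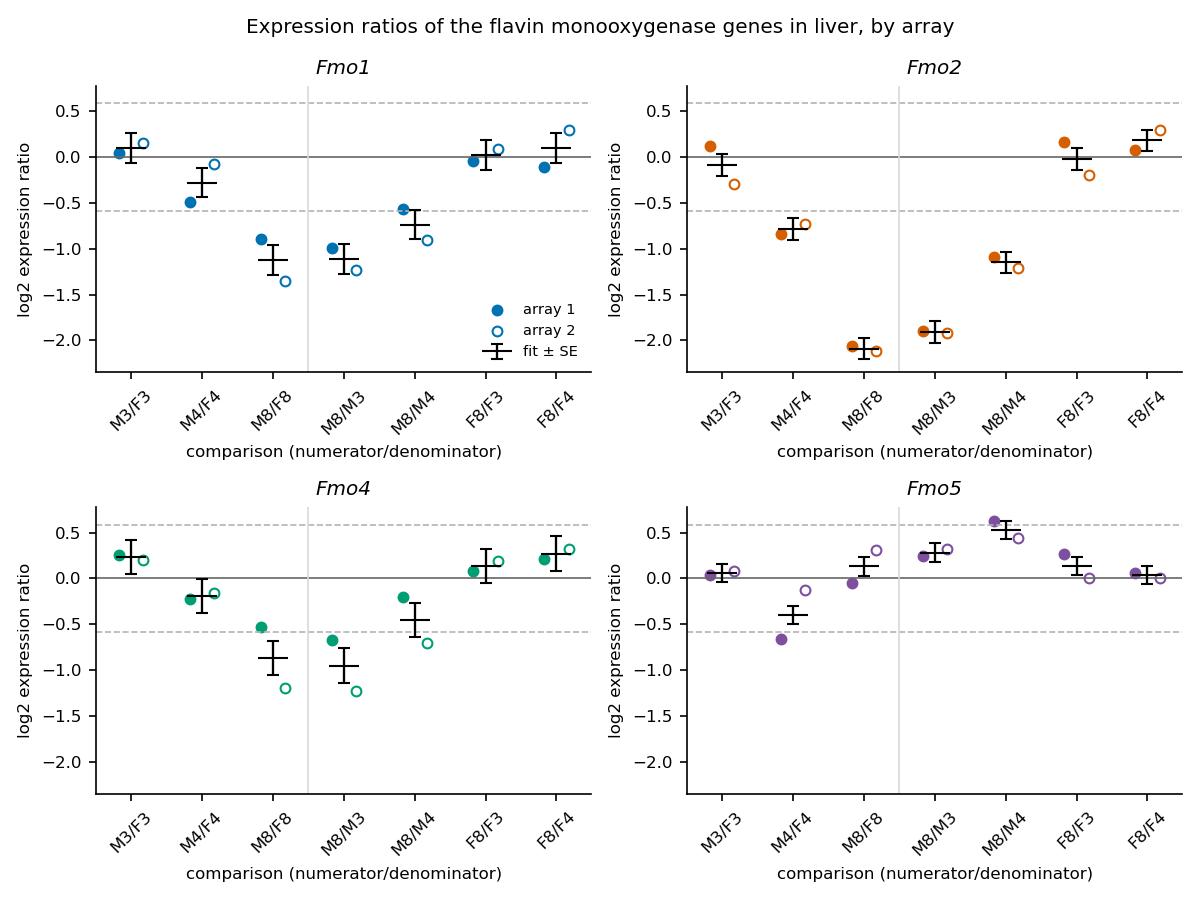
Log2 expression ratio (vertical axis) of each member in the 7 comparisons (horizontal axis). Filled and open circles are arrays 1 and 2, bars are the fitted ratio ± SE, dashed lines mark 1.5-fold, and the grey vertical line parts the sex comparisons from the age comparisons. Fmo2 lies near -2 in M8/F8 and M8/M3, Fmo1 and Fmo4 follow the same course at a smaller size, and Fmo5 stays within 1.5-fold in every fit.

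Fmo2 had the largest sex difference of the 4 genes. Its log2 M8/F8 ratios on the 2 arrays were -2.06 and -2.12. Adult males were thus low on both arrays, and the replicates lay close together. The fitted ratio was -2.09 ± 0.12 (SE, n = 2 arrays), a 4.26-fold lower expression in males (limma, adjusted p = 4.85e-05). At 4 wk the arrays gave -0.84 and -0.73, and Fmo2 was called 1.72-fold lower in males (limma, adjusted p = 0.00294). At 3 wk the arrays gave 0.12 and -0.30, on either side of 0 (limma, adjusted p = 0.654).

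Fmo1, the form that also produces taurine, gave log2 M8/F8 ratios of -0.89 and -1.36 with its brighter probe. Both arrays had the male pool lower. The fitted difference was 2.18-fold (log2 ratio -1.12 ± 0.16, SE, n = 2; limma, adjusted p = 0.00243). The second probe of Fmo1 gave -1.12 and -1.30, and was called as well (2.32-fold lower, limma, adjusted p = 0.000429). The 4 wk arrays gave -0.49 and -0.07 with the brighter probe, a gap wider than the fitted difference of -0.28, and no call (limma, adjusted p = 0.272), and -0.36 and -0.10 with the second probe (adjusted p = 0.212). At 3 wk the ratios were 0.05 and 0.15 (limma, adjusted p = 0.738).

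Fmo4, the minor form, gave log2 M8/F8 ratios of -0.53 and -1.20. Both were below 0, but array 2 showed the larger change, with the widest gap between replicates for this gene. The fit placed Fmo4 1.82-fold lower in males (log2 ratio -0.87 ± 0.19, SE, n = 2; limma, adjusted p = 0.0148), and without array 2 the ratio was -0.46 and no longer called (adjusted p = 0.175). The ratios were -0.22 and -0.16 at 4 wk (limma, adjusted p = 0.545) and 0.26 and 0.21 at 3 wk (limma, adjusted p = 0.446).

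Fmo5, the Baeyer-Villiger form, gave log2 M8/F8 ratios of -0.05 and 0.31 with its brightest probe. The arrays lay on either side of 0, and the fitted ratio of 0.13 had a 95% interval from -0.10 to 0.36 (limma, adjusted p = 0.413). The second probe gave 0.05 and 0.30 (adjusted p = 0.42). In M4/F4 the arrays gave -0.66 and -0.13, and Fmo5 passed the adjusted p (0.0265) but not the fold threshold (log2 ratio -0.39 ± 0.10, SE, n = 2). The second probe of Fmo5 gave -0.40 and -0.18 there (limma, adjusted p = 0.182) and the third -0.37 and -0.31 (adjusted p = 0.605), so that neither passed. Without array 2 of M4/F4 the log2 ratio of Fmo5 was -0.59, beyond 1.5-fold, and without array 1 it was -0.195. In M4/F4, 1 of the 4 members was called lower, against 1.04% of all probes tested. In M3/F3, limma called 0 of 4 members, and 0 had an unadjusted p below 0.05 or passed an error-weighted average of both arrays. Of all probes tested in M3/F3, 0.659% were called in either direction.

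**Figure D2:**
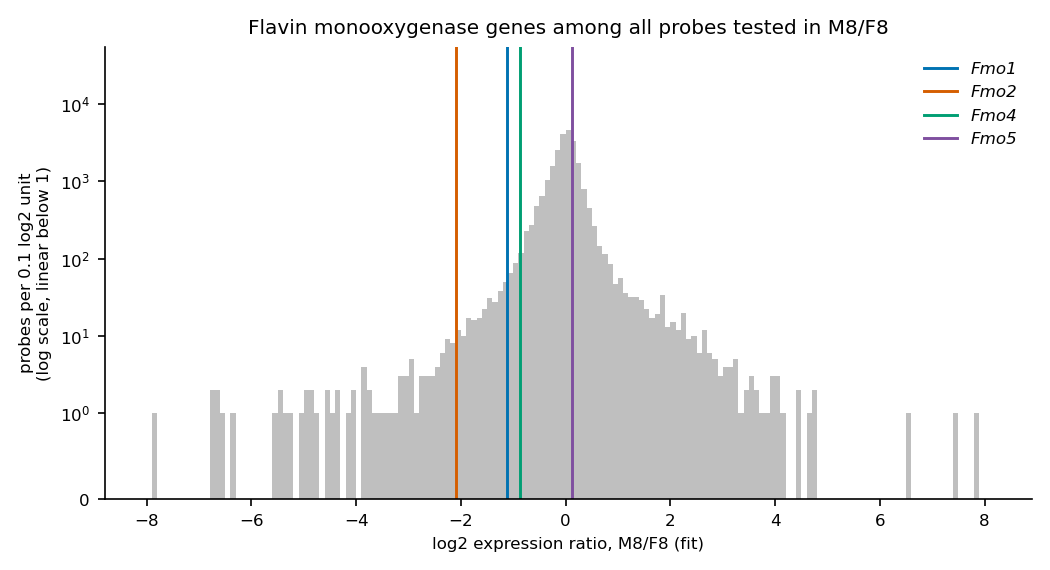
Number of probes (vertical axis, log scale) by fitted log2 M8/F8 ratio (horizontal axis, bins of 0.1) among the 23293 probes bright enough to be tested, with the 4 members as coloured lines. Fmo2, Fmo1 and Fmo4 lie at -2.09, -1.12 and -0.87 in the lower tail, and Fmo5 lies at 0.13 near the centre.

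Among the probes tested in M8/F8, 0.369% had a lower ratio than Fmo2. The corresponding shares were 1.34% for Fmo1, 2.2% for Fmo4 and 73.6% for Fmo5.

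In males, 3 of the 4 members fell between 3 and 8 wk, where 9.34% of all probes tested were called lower. Fmo2 gave log2 M8/M3 ratios of -1.90 and -1.92, almost identical on both arrays. This was a 3.76-fold decrease (log2 ratio -1.91 ± 0.12, SE, n = 2; limma, adjusted p = 6.65e-05). With ratios from the pixel medians it was 2.46-fold (log2 ratio -1.30, adjusted p = 0.00106) and still called. For Fmo1 the arrays gave -0.995 and -1.23, and both lay well below 0. The decrease was 2.16-fold (limma, adjusted p = 0.00253), and the second probe gave 2.69-fold (limma, adjusted p = 0.000214). Fmo4 gave -0.67 and -1.23, and array 2 again had the larger change. Its decrease was 1.93-fold (limma, adjusted p = 0.01), and without array 2 of M8/M3 the log2 ratio was -0.64 and not called (adjusted p = 0.129).

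From 4 to 8 wk, 2 of the 4 members fell in males, with 5.98% of all probes called lower. Fmo2 gave -1.09 and -1.21 in M8/M4, again close together (2.22-fold lower, limma, adjusted p = 0.000547). Fmo1 gave -0.57 and -0.91 (1.67-fold lower, limma, adjusted p = 0.0148), and without array 2 of M8/M4 its log2 ratio was -0.55 and not called (adjusted p = 0.165). The second probe of Fmo1 gave -0.96 and -0.83 (1.86-fold lower, limma, adjusted p = 0.00162). Fmo4 gave -0.20 and -0.70 and did not pass (limma, adjusted p = 0.135). Fmo5 gave 0.63 and 0.44, the opposite direction to the other 3 genes. Its fitted M8/M4 ratio was 1.45-fold (log2 ratio 0.53 ± 0.10, SE, n = 2; limma, adjusted p = 0.00777), under the fold threshold, so that it was not called. The second probe of Fmo5 gave 0.30 and 0.71 (1.42-fold, limma, adjusted p = 0.0348), whereas the third gave 0.27 and -0.83 (adjusted p = 0.674). In M8/M3 Fmo5 gave 0.25 and 0.32 (limma, adjusted p = 0.0828).

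In females none of the members was called by limma in F8/F3 or F8/F4, and none had an unadjusted p below 0.05 or passed the error-weighted average. Of all probes tested, 11.8% (F8/F3) and 6.15% (F8/F4) were called, in either direction. Fmo2 gave log2 ratios of 0.16 and -0.20 in F8/F3, whereas its F8/F4 arrays gave 0.07 and 0.29. These values scattered around 0. The 95% interval of its fitted F8/F3 ratio ran from -0.29 to 0.25. For Fmo1 the interval ran from -0.35 to 0.39, and for Fmo4 from -0.30 to 0.57. The arrays of Fmo4 were all above 0 in females, at 0.08 and 0.19 for F8/F3, then 0.22 and 0.33 for F8/F4 (limma, adjusted p = 0.683 and 0.368). Fmo5 gave 0.26 and 0.003 in F8/F3, and its F8/F4 values were 0.06 and 0.01.

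**Figure D3:**
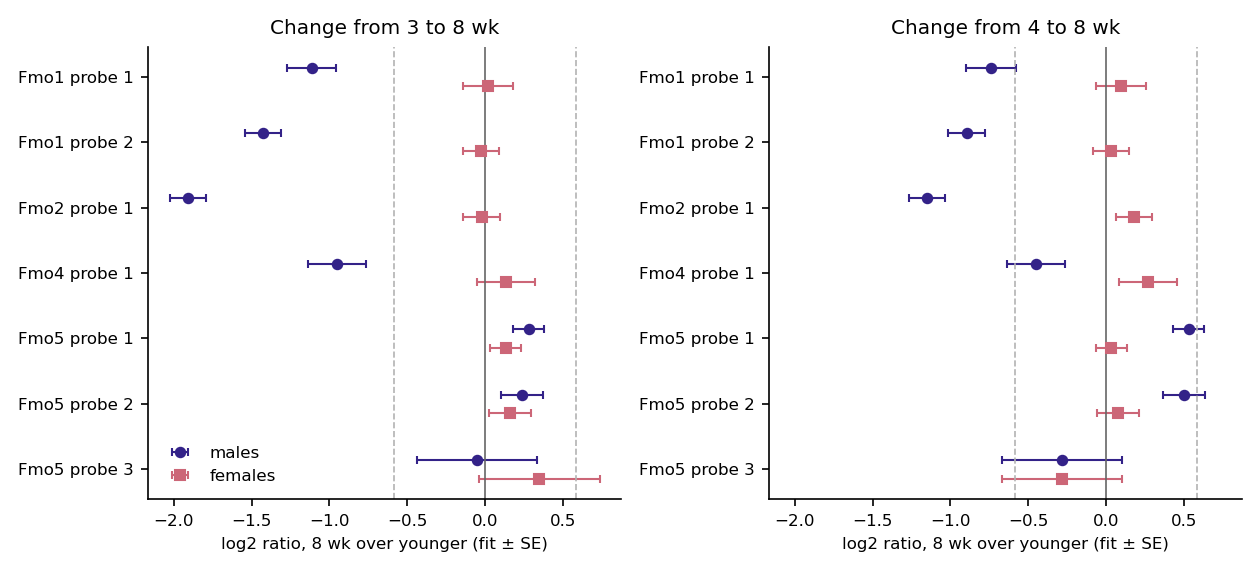
Fitted log2 ratio ± SE (horizontal axis) of 8 wk over 3 wk (left) and over 4 wk (right) for each of the 7 probes (vertical axis), in males (circles) and females (squares). Dashed lines mark 1.5-fold. The probes of Fmo1, Fmo2 and Fmo4 lie left of 0 in males, between -1.91 and -0.45, and between -0.02 and 0.27 in females.

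Whether the age change differed between the sexes was tested directly, by subtracting F8/F3 from M8/M3, or F8/F4 from M8/M4. The M8/M3 arrays were on slides 1 and 2, scanned on day 1. Those of F8/F3 were on slides 3 and 4, scanned on day 2. Slide and scan day thus coincided with the sides of the difference from 3 to 8 wk, and their part was not tested. From 3 to 8 wk the difference was called for 2 of the 4 members, where 2.01% of probes were called lower. For Fmo2 it was -1.89 ± 0.16 (SE) on the log2 scale (limma, adjusted p = 0.00122), and for Fmo1 it was -1.14 ± 0.23 (limma, adjusted p = 0.0274). When the ratios were recomputed from the pixel medians of the spots, the difference for Fmo2 was -1.23. For Fmo1 the call was lost without either array of M8/M3 or of F8/F3 (log2 differences from -1.27 to -1.01, adjusted p from 0.101 to 0.164), and with the slide as a block (adjusted p = 0.0643). The second probe of Fmo1 gave a difference of -1.40 (limma, adjusted p = 0.00392). Fmo4 had a difference of -1.08 ± 0.27 that did not pass (limma, adjusted p = 0.0545). It passed under 7 of 23 alternatives, among them the replicate block (limma, adjusted p = 0.0461), shared pools in the covariance (0.0305) and the sex arrays (0.0489). The 7 include the omission of either array of M8/F8, which does not enter this difference. Over the 23 alternatives the difference of Fmo4 lay between -1.40 and -0.77. Fmo5 had a difference of 0.15 ± 0.14 (adjusted p = 0.588).

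From 4 to 8 wk the difference was called for 1 of the 4 members, Fmo2, against 0.724% of probes called lower. Its size was -1.33 ± 0.17 (SE) on the log2 scale (limma, adjusted p = 0.00963), and the call was lost without array 2 of M8/M4 (-1.25, adjusted p = 0.0902) or either array of F8/F4 (-1.45 and -1.21, adjusted p = 0.0631 and 0.0918), and with ratios from the pixel medians (-0.99, adjusted p = 0.0798). For Fmo1 the brighter probe gave -0.84 (limma, adjusted p = 0.129) and the second probe -0.93 (adjusted p = 0.0319). Fmo4 gave -0.72 (adjusted p = 0.258) and Fmo5 gave 0.50 (adjusted p = 0.14). The same differences could be read from the sex comparisons, as M8/F8 minus M3/F3 or M4/F4, and for the brightest probe of each member both readings lay within 0.112 of each other on the log2 scale.

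The step from 3 to 4 wk was not hybridized directly and was read through the 8 wk pools. For males its sides, M8/M3 and M8/M4, were on different slides scanned on different days. In males Fmo2 gave -0.81 and -0.71, a value low on both readings, but the fitted -0.76 ± 0.17 did not pass (limma, adjusted p = 0.0957). It was called with shared pools in the covariance (limma, adjusted p = 0.0257) and with 6 group means (-0.81, adjusted p = 0.00532). Over all probes these settings gave 534 and 721 calls for this step in males, in place of 77. With the slide as a block there were 0. The other members gave fitted values from -0.50 (Fmo4) to -0.25 (Fmo5) in males. In females they ranged from -0.20 (Fmo2) to 0.10 (Fmo5). Limma called 0 of 4 members in either sex, with 1 unadjusted p below 0.05 in males and 0 in females, and 0.287% and 0.123% of all probes were called.

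Normalized signals of the single channels gave the order of the 6 groups, as a description. They are log2 units of one probe and cannot be compared between genes, and the arrays of a group (4 at 3 and 4 wk, 6 at 8 wk) came from its 2 pools. Fmo2 lay from 6.40 to 6.77 in M8 (median 6.65) and from 7.50 to 7.87 in M4 (median 7.76). These groups overlapped neither each other nor any other group. F4, M3, F8 and F3 followed with medians of 8.62, 8.66, 8.77 and 8.78 and overlapping ranges.

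Fmo1 was lowest in M8 (13.87 to 14.16, median 14.11), below every value of the other groups. M4 came next (14.74 to 14.99, median 14.80) and overlapped F4 (14.88 to 15.23, median 15.00). F3, F8 and M3 followed with medians of 15.07, 15.12 and 15.17. F8 (14.89 to 15.23) overlapped both of the others, whereas F3 (14.95 to 15.10) lay just below M3 (15.13 to 15.29). Fmo4 had the same lowest pair, M8 from 8.49 to 9.02 (median 8.75) and M4 from 9.06 to 9.33 (median 9.16), which did not overlap. M4 overlapped F4 (9.29 to 9.49), and the medians of F4, F3, F8 and M3 rose from 9.43 to 9.78 with each range overlapping the next.

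Fmo5 had another order. M4 was lowest (14.57 to 14.70, median 14.64) and overlapped no other group, and M8 was highest (15.10 to 15.34, median 15.16), overlapping F8 (14.91 to 15.12), M3 (14.82 to 15.12) and F4 (14.81 to 15.28). The group medians of Fmo5 spanned 0.52 log2 units, against 2.13 for Fmo2, 1.06 for Fmo1 and 1.03 for Fmo4. The widest range within a group was 0.47 for Fmo5.

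**Figure D4:**
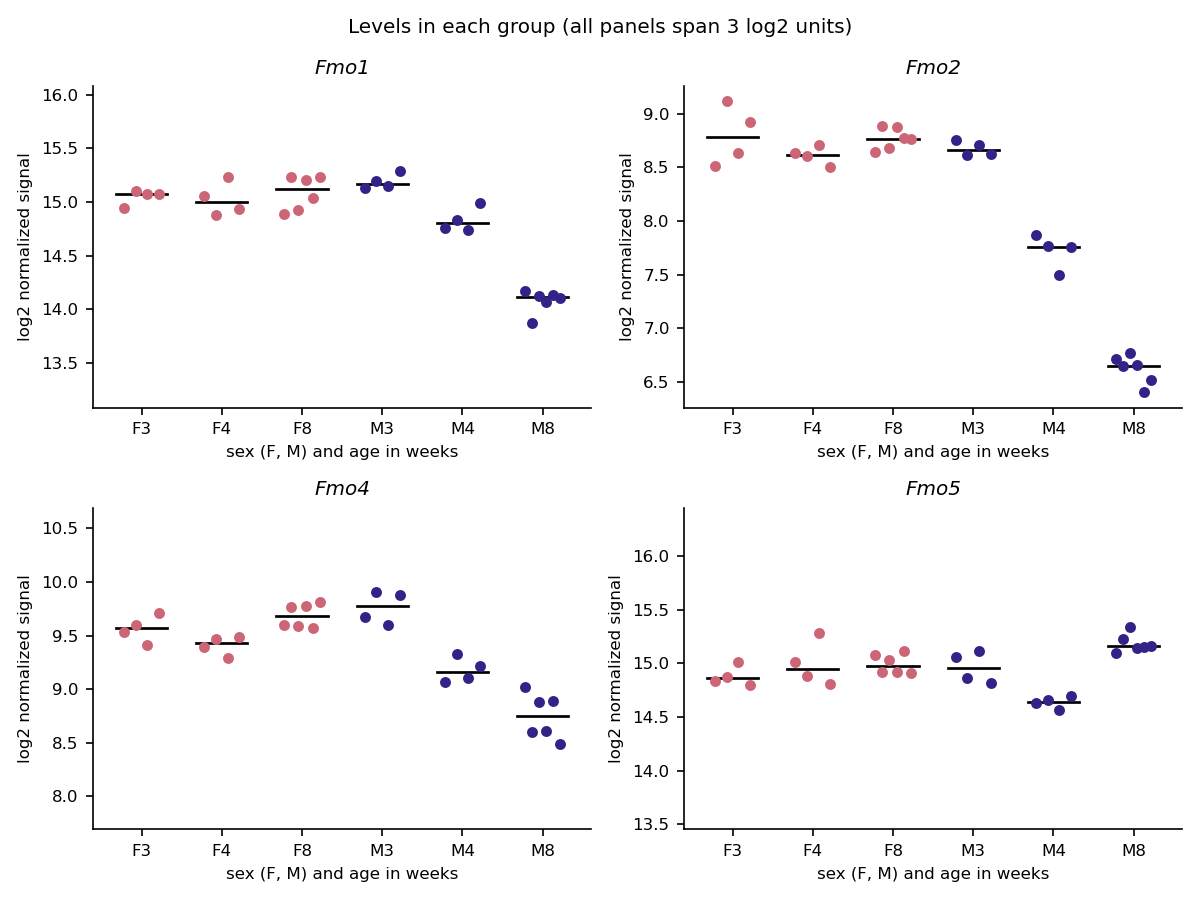
Log2 normalized signal (vertical axis, 3 log2 units in every panel) of each member by group (horizontal axis), with 1 point per array, red for females and blue for males, and a line at the median. M8 is the lowest group for Fmo1, Fmo2 and Fmo4, at medians of 14.11, 6.65 and 8.75, and the highest for Fmo5, at 15.16.

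The ratios of Fmo1, Fmo2 and Fmo4 moved together across the 7 comparisons, with Pearson's r of 0.987 (Fmo1 and Fmo2), 0.993 (Fmo1 and Fmo4) and 0.99 (Fmo2 and Fmo4). Fmo5 gave r from -0.425 to -0.30 with these genes. The 7 points share pools and arrays, so that r is only a description. Both probes of Fmo1 followed each other with r = 0.99. The brightest and second probes of Fmo5 did so with r = 0.996, but the third probe gave r = 0.156 and 0.139 with them. Replicate arrays of the third probe were up to 1.34 log2 units apart (0.37 and -0.96 in M8/F8), so that Fmo5 rests on the other 2 probes. The members are related in sequence, and cross-hybridization between them was not tested. Of the genes related to this family, Fmo9 and Gm4847 had 1 probe each that was well above background in no channel.

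Among 3803 genes called in at least 1 comparison, the pattern over the 7 ratios most like that of Fmo1 belonged to Tbc1d19 (r = 0.9954), Slc16a5 (r = 0.995), of the monocarboxylate transporter family, and H2-Q1 (r = 0.9946), of the major histocompatibility complex. For Fmo2 the closest were H2-Q1 (0.9896), Slco1a4 (0.989), an organic anion transporter, and Cyp39a1 (0.9887), an oxysterol hydroxylase. For Fmo4 they were Cyp39a1 (0.9984), Mmd2 (0.9926) and H2-Q1 (0.9891). The value of r does not depend on the size or offset of the ratios. Cyp39a1, for example, had log2 ratios of -0.91 in M4/F4 and -0.50 in F8/F3, against -0.19 and 0.13 for Fmo4. H2-Q1 was on all 3 lists, with a log2 M8/F8 ratio of -2.89 (limma, adjusted p = 1.01e-05). It has near-identical relatives that its probe may also bind. Cyp39a1 had an M8/F8 ratio of -1.59 (limma, adjusted p = 0.000375), between those of Fmo1 and Fmo2.

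Genes that supply these enzymes or act beside them were mostly not called in M8/F8. Of 27 such genes in 5 lists, 26 were tested. In M8/F8, 3 were called higher, against 3.05% of all probes, and 1 was called lower. The largest difference was that of Csad, the decarboxylase that makes hypotaurine, the substrate that Fmo1 oxidizes to taurine. Its log2 M8/F8 ratio was 1.80 (limma, adjusted p = 0.000315), opposite in sign to that of Fmo1. Ephx1, the microsomal epoxide hydrolase, was higher in males as well (0.99, limma, adjusted p = 0.0104). H6pd, which makes NADPH inside the endoplasmic reticulum, was higher at 0.61 (limma, adjusted p = 0.0278), and Por, the reductase of the cytochromes P450, was lower at -0.94 (limma, adjusted p = 0.00712). The last pair were named after their values were seen.

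In M8/M3, 6 of the 26 genes were called higher, against 8.66% of all probes, and 1 lower. Csad again had the largest change (1.95, limma, adjusted p = 0.00022) and Pgrmc1, a haem-binding membrane protein of the endoplasmic reticulum, the next (0.87). In F8/F3, 3 of the 26 were called, all higher, against 11.8% of all probes called in either direction. By list, none of the 4 tested genes of FAD supply was called in any of the 7 comparisons, and their median log2 M8/F8 ratio was 0.08. The median was 0.09 for the 5 genes of NADPH supply, 0.24 for the 6 microsomal partners, 0.04 for the 5 genes of hypotaurine and taurine and -0.29 for the 6 of choline and methylamines. The median over all probes tested was 0.001.

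Markers of other liver cells were measured beside the members, since in whole liver fewer cells of a type and less RNA per cell cannot be told apart. In M8/F8, 0 of 6 hepatocyte markers were called, with summed signals of 479000 to 642000 in M8 and 526000 to 686000 in F8, which overlapped. The list's median log2 M8/F8 ratio was -0.31, and 4 of its genes passed the adjusted p but not the fold threshold, Alb at -0.57 (limma, adjusted p = 0.00717), Cps1 at -0.52 (0.00219), Tat at -0.41 (0.00104) and Apoa1 at 0.40 (0.0351). Of 5 Kupffer cell markers, 3 were called lower in males (Clec4f, Marco and Adgre1), and the summed signal was 15300 to 20100 in M8 against 24500 to 27900 in F8. The other Kupffer markers, Cd5l and Vsig4, passed the adjusted p at -0.54 and -0.55 but not the fold threshold. No marker of endothelial, stellate or bile duct cells was called in M8/F8, although Stab2 (-0.33), Lrat (-0.41) and Reln (-0.24) passed the adjusted p. The summed signal of the endothelial markers was nevertheless lower in M8 (25400 to 27200) than in F8 (28500 to 31000), and that of the bile duct markers was higher (566 to 641 against 372 to 447), without overlap. The stellate list overlapped, at 11700 to 15200 in M8 and 14000 to 16600 in F8. Of 3 markers of dividing cells, 1 was called lower. The summed signal of adipocyte markers was 51.8 to 872 in M8 and 19.9 to 76.3 in F8, with 0 of 3 tested called. Of the lung markers, Sftpb was well above background in no channel, Sftpc in 2 of 28 and Scgb1a1 in 22 of 28, with a log2 M8/F8 ratio of -0.36 for Scgb1a1 (limma, adjusted p = 0.0197, under 1.5-fold). The summed signal of the lung markers was 19.5 to 28.4 in M8 and 24.6 to 29.3 in F8. The summed signal of proximal tubule markers, for the kidney, was 51.7 to 79.1 in M8 and 66.4 to 81.9 in F8. The part of these cell types in the sex difference of Fmo1, Fmo2 and Fmo4 was not tested.

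In M8/M3, markers called lower numbered 3 of 3 for dividing cells, 3 of 6 for stellate cells and fibroblasts, 2 of 5 for Kupffer cells, 2 of 4 for bile duct, 1 of 5 for sinusoidal endothelium and 1 of 6 for hepatocytes (Alb). In F8/F3 the numbers were 3, 2, 1, 2, 1 and 0. Their part in the age change of Fmo1, Fmo2 and Fmo4 in males was not tested.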

How the data were processed

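Liver RNA pools of 6 groups were compared on 14 arrays on 4 slides, scanned on 2 days. The authors processed each array with Agilent Feature Extraction 10.7.1.1, subtracting the local background and normalizing the dyes by linear and LOWESS steps, and deposited for each spot the log10 ratio of red over green and the intensity of both channels, as well as flags. Per the labels, the dyes gave the direction of each ratio. The log10 ratios of the deposited value matrix equalled those of the scanner output (largest difference 0). Ratios were converted to log2, spots of a probe were averaged, and non-uniform outlier spots (0 to 10 per array) were left out. Gene names came from RefSeq accessions (assembly GRCm38.p6) for 26055 probes.

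The fit used R 4.3.3 and limma 3.58.1, on the 27390 probes bright in at least 1 comparison, with 6 residual degrees of freedom. The Rosetta error model of the study was not available here, and limma stood in for it. Benjamini-Hochberg adjustment covered the 7 comparisons together and each contrast between them alone. Levels were log2 processed intensities after loess and Aquantile normalization. The procedure was tested on simulated data.

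The brightest probe stood for a gene, and its other probes are given where they bear on a call. The text names the members, the genes most alike, and the 2 called genes of the context lists with the largest ratios in M8/F8 and in M8/M3. The members, lists and tests were chosen with earlier results of these data known. Not every gene of the family on the array is reported here. Alternatives changed the normalization, dye term, filter, thresholds, test, model, blocks, probes and arrays used. Precision was limited by the 2 arrays of each comparison.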

Additional observations from a re-analysis of the deposited data

Results flagged for a closer look

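The change with age differed between males and females, by a test of the difference itself, for Fmo2 from 3 to 8 wk (-1.889 on the log2 scale, M8/M3 minus F8/F3), for Fmo2 from 4 to 8 wk (-1.329, M8/M4 minus F8/F4) and for Fmo1 from 3 to 8 wk (-1.135). In each case the male ratio was below 0 on both arrays and the female ratios lay on either side of 0 or, for Fmo2 from 4 to 8 wk, slightly above it. The call held under 23 of 23 alternatives for Fmo2 from 3 to 8 wk. It held under 19 of 23 for Fmo2 from 4 to 8 wk and under 19 of 24 for Fmo1 from 3 to 8 wk.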

How the results depend on the processing

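The number of members called in M3/F3, M8/F8, M8/M3, F8/F3 and F8/F4 changed under none of the alternatives other than leaving out 1 array. With no threshold on the ratio it was 2 in M4/F4 (Fmo5 lower) and 3 in M8/M4 (Fmo5 higher, limma, adjusted p = 0.00777). Calls over all probes then rose from 391 to 1677 in M4/F4 and from 2928 to 7618 in M8/M4. For the difference from 3 to 8 wk the number of members was 1 with the slide as a block (Fmo1 at adjusted p = 0.0643). For that from 4 to 8 wk it was 0 with ratios from the pixel medians, 3 with 6 group means and 2 with any probe of a gene. Calls over all probes were 362 with the pixel medians and 1400 with 6 group means, in place of 497. For M4/M3 the number of members was 1 with 6 group means and 1 with shared pools in the covariance, both for Fmo2. These settings gave 721 and 534 calls over all probes, in place of 77. Leaving out each array in turn gave 1 to 2 members in M4/F4, 2 to 3 in M8/F8, 2 to 3 in M8/M3, 1 to 2 in M8/M4, 1 to 3 for the difference from 3 to 8 wk and 0 to 1 for that from 4 to 8 wk, and 0 elsewhere. The cause of these changes was not tested. No member's ratio that was called changed sign. The labels do not say that a replicate number marks shared pools. Differences between replicates, which include the dye, correlated across probes with r from -0.306 to -0.24 between sex and age comparisons without a common group, from -0.489 to -0.394 where a group stood on opposite sides and from -0.077 to 0.003 where it stood on the same side. Between age comparisons r was 0.322 to 0.402 without and 0.59 to 0.614 with a common group. This is a hint from the data that pools of one number were used again. With the replicate block, 3 members were called in M8/F8, 3 in M8/M3, 2 in M8/M4 and 1 in M4/F4, and 3 for the difference from 3 to 8 wk, with Fmo4 added (adjusted p = 0.0461). The difference of Fmo4 also passed with ratios from the pixel medians (-0.89, limma, adjusted p = 0.0404) and 6 group means (0.000928). These settings gave 503 and 2138 calls over all probes for the difference from 3 to 8 wk, in place of 1105. The mean of all probes of a gene, chosen after seeing the data, gave log2 M8/F8 ratios of -1.17 for Fmo1 and 0.004 for Fmo5. Over all probes, ratios from the pixel medians gave 1030 calls in M8/F8 in place of 1627 and 2113 in M8/M3 in place of 4561, and with no threshold on the ratio there were 5061 and 10490.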
